A study of Mus musculus with 6 samples.

Results

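The Gimap genes (GTPases of immunity-associated proteins) of the mouse form a family of small GTP-binding proteins encoded in 1 cluster. All 8 listed members (Gimap1, Gimap3, Gimap4, Gimap5, Gimap6, Gimap7, Gimap8 and Gimap9) were found by symbol in the expression tables, out of 24318 gene symbols. The members were matched by name in each of 6 RNA-seq libraries made from sorted DN1 (double-negative 1) thymocytes. DN1 cells are the CD44-positive, CD25-negative cells that hold the earliest thymic progenitors, and the sort, by CD44, excluded cells bearing CD25, CD8a, TCRb or a lineage marker. The WT group holds 3 libraries and the group labelled Tle134-deficient holds 3, from mice of 5 to 8 weeks. The name Tle134 is taken to stand for Tle1, Tle3 and Tle4, corepressors of the Groucho family. The sources used here do not give the alleles, the way they were deleted or the mouse strain. The labels do not say whether each library comes from its own animal, so p-values measure only how far these libraries spread, and part of that spread may be technical.

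GIMAP proteins carry a GTP-binding domain of the AIG1 type, and most are held on intracellular membranes such as those of the endoplasmic reticulum, Golgi, lysosomes or lipid droplets. They are best known from lymphocytes. Loss of Gimap5 in rats and mice causes lymphopenia through poor survival of peripheral T cells, Gimap1 is needed for mature T and B cells, and Gimap6 binds the autophagy protein Gabarapl2. Several members change in level as thymocytes pass from one stage of T-cell development to the next.

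The cluster lies on chromosome 6, at chr6:48597233-48720850 in mm9, a stretch of 123.6 kb. Along it the order is Gimap8, Gimap9, Gimap4, Gimap6, Gimap7, Gimap1, Gimap5 and Gimap3, with Gimap6 and Gimap3 on the minus strand and the others on the plus strand in GRCm38. The assembled loci did not keep the 8 genes apart in every library. Gimap1 and Gimap7 shared a row in WT replicate 1, and Gimap1 and Gimap5 shared a row in WT replicates 2 and 3 and in labelled-deficient replicate 1. These 3 genes were therefore added into 1 unit, which leaves 6 units, all of which passed the filter of 1 FPKM in at least 3 libraries. The GENCODE M21 annotation, on GRCm38, places a protein-coding locus, Gm28053, across all 3 of them on the same strand. Gimap3 and Gimap5 were the only members whose GENCODE transcripts share any 50-base window: 7.52% of the windows of Gimap3 also occur in Gimap5 and 9.98% of those of Gimap5 in Gimap3, so some of their reads cannot be assigned to 1 gene with certainty.

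Promoter sequences are shown for 4 members because the within-library balance between them differed between the groups: Gimap9 set against Gimap3, Gimap8 and Gimap4. The choice was made from the values. Gimap6 and the unit of Gimap1, Gimap5 and Gimap7, which were also in pairs that differed, are not shown. Each runs 5′ to 3′ on the gene's own strand, from 250 bases before to 50 bases after an annotated RefSeq start (GRCm38.p6). Tcf/Lef and Runx factors are DNA-binding partners of Tle proteins, and capitals mark matches to the Tcf/Lef letters CTTTGA or CTTTGT or the Runx letters TGTGGT, on either strand. For Gimap8 the first of 2 overlapping start windows is shown (chr6:48646984-48647283, plus strand), followed by Gimap3 (chr6:48770802-48771101, minus strand), Gimap4 (chr6:48684328-48684627, plus strand) and Gimap9 (chr6:48675885-48676184, plus strand).
Gimap8: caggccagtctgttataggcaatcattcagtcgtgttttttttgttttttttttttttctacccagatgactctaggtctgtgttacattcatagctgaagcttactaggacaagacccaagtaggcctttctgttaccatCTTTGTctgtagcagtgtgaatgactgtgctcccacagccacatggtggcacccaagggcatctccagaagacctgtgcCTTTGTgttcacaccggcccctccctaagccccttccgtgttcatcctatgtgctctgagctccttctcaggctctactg
Gimap3: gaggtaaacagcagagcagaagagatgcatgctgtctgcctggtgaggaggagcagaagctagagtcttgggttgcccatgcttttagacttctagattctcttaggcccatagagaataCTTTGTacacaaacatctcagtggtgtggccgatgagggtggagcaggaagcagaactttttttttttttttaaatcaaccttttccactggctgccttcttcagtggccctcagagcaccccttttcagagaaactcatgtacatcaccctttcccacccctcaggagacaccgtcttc
Gimap4: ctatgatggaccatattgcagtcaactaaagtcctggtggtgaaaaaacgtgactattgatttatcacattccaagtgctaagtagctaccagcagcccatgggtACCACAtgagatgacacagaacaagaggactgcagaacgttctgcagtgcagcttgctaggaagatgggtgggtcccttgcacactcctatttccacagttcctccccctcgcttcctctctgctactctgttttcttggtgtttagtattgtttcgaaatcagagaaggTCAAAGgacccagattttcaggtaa
Gimap9: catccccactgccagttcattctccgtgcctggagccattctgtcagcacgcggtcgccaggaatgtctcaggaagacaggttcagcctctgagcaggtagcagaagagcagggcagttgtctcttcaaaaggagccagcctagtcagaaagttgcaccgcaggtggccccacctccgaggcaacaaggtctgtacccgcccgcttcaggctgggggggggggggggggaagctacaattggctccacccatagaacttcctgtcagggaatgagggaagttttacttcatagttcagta

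The Gimap8 window shown holds 2 matches to CTTTGT, the first bases of which lie 109 and 30 bases before the start. The Gimap3 window holds 1 match to the same letters, 130 bases before the start. The Gimap4 window has the reverse complement of CTTTGA 25 bases after the start and that of TGTGGT 145 bases before it. No match to any of these letters is in the Gimap9 window, which says only that the letters are absent there. The windows of Gimap6 and Gimap5, not shown, hold none of them either. Whether these letters bear on the levels of the members was not tested. Across the 9 windows of the 8 members, CTTTGT occurred in 3 (both Gimap8 windows and Gimap3), against 18.7% of all 32851 windows in the table. CTTTGA occurred in 2 (Gimap4 and Gimap7), against 16.0%, and TGTGGT in 3 (Gimap4, Gimap7 and Gimap1), against 16.8%. The Ets letters CCGGAAG occurred in none of the 9, against 8.86%, and the short Klf letters CACCC in 6, against 57.5%. A match is a description of the letters and shows no binding.

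Expression is given as FPKM (fragments counted per transcript length and per mapped total), which is per length, so levels of different genes can be set side by side within a library. Each value is relative to its own library. Total reads were not among the values used. Taking each deposited bound to lie 2 SD of a fragment count from its value, the annotated loci held 1.42e+06 to 3.24e+06 fragments in the WT libraries and 1.51e+06 to 4.34e+06 in the others. By that approximation, which need not hold for every row, replicate 1 of each group was the shallowest. The targeted genes did not bear out the label: Tle1 was at 1.37, 1.19 and 3.61 FPKM across the WT replicates, against 11.5, 11.3 and 11.1 in the labelled-deficient replicates, with Tle3 and Tle4 also at higher means there. Whole-locus FPKM includes reads outside any deleted exon, so the check is partial, and the group is called labelled Tle134-deficient throughout. Cd44, the positive marker of the gate, ranged from 27.5 to 74.3 FPKM over the 6 libraries, and Cd8a from 0 to 2.48 FPKM. Il2ra, which encodes CD25, was at 1.69 to 3.59 FPKM in WT and at 4.22 to 7.36 FPKM in the libraries labelled deficient. Of the 7 genes of the gate list that could be tested, 0 passed limma's test. The groups did not overlap for 3, beside 15.2% of all genes tested. These were Il2ra and Cd24a, both higher in the libraries labelled deficient, and Notch1, lower there.

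All 6 Gimap units were expressed in every library. The highest mean over the 6 libraries belonged to the joined unit Gimap1/Gimap5/Gimap7 at 137 FPKM, followed by Gimap6 at 87.0, Gimap4 at 48.1, Gimap9 at 35.0, Gimap3 at 23.7 and Gimap8 at 22.0 FPKM. The ranges of neighbours in that order overlapped. Read as count error alone, the bounds of the joined unit's 233 FPKM row in WT replicate 1 would stand for about 68.4 fragments. Those of Gimap6 in that library, at 63.0 FPKM, would stand for 510, so the rank of the joined unit is uncertain. Within WT, Gimap6 was the steadiest, its highest library being 1.21 times its lowest, while the joined unit and Gimap4 spread by 6.002 and 6.39 times.

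**Figure D1:**
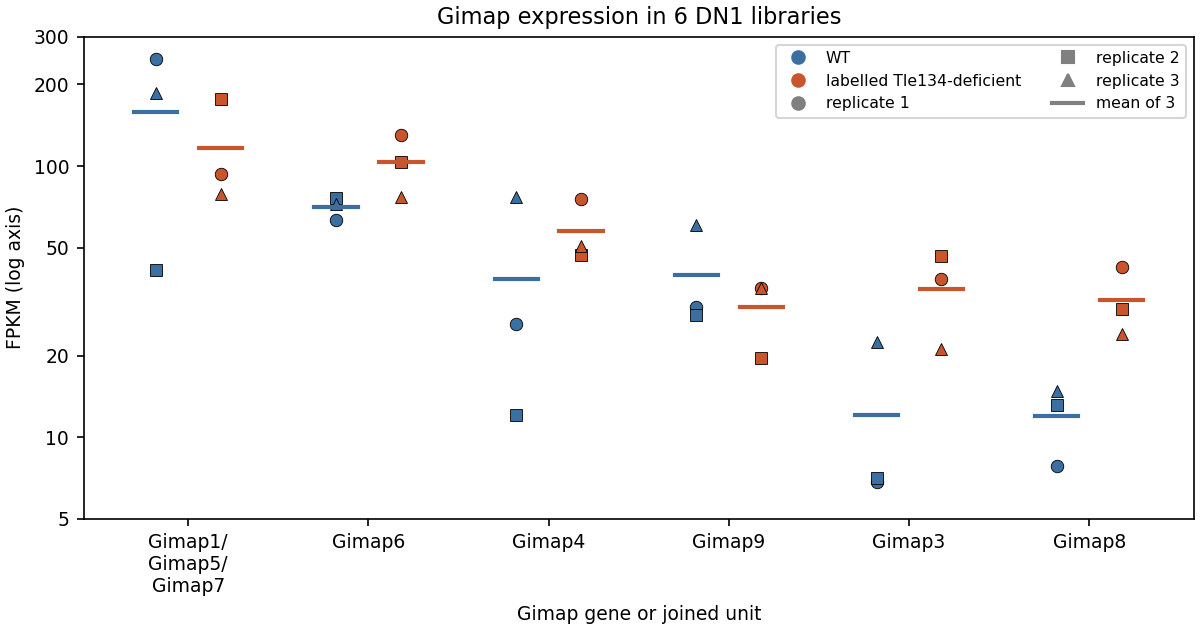
Expression of each Gimap gene or joined unit in FPKM on a log axis, for 3 WT libraries (blue) and 3 libraries labelled Tle134-deficient (orange); the marker shape gives the replicate number and the bar the mean of 3. Gimap8 and Gimap6 are the units whose groups do not overlap, and Gimap3 overlaps only through WT replicate 3 at 22.4 FPKM and labelled-deficient replicate 3 at 21.2 FPKM.

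The comparison of the groups found Gimap8 and Gimap3 higher in the libraries labelled deficient by the size of their means, 2.69-fold and 2.91-fold, and neither passed the test over all genes. None of the 6 units passed limma's test at an adjusted p under 0.05, a threshold that 83 of the 11063 genes tested passed (0.750%). At an unadjusted p under 0.05 there were 2 of 6 (Gimap8 and Gimap3), both higher in the libraries labelled deficient, as were 5.68% of all genes tested. The groups did not overlap for 2 of 6 (Gimap8 and Gimap6), both higher in the libraries labelled deficient; of all genes 8.67% were separated in that direction and 15.2% in either. Of the 6 differences, 4 were above 0 and 2 below, and 52.7% of all genes were above 0. The median log2 difference of the 6 units was 0.72, beside 0.04 over all genes tested.

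Gimap8 encodes the largest protein of the family, with several GTP-binding domains in 1 chain. It was at 7.85, 13.1 and 14.8 FPKM in WT replicates 1, 2 and 3, against 42.6, 29.8 and 24.0 in the labelled-deficient replicates. Every labelled-deficient library lay above every WT library. The means were 11.9 ± 3.62 and 32.1 ± 9.55 FPKM (SD, n = 3 each), a difference of 1.36 ± 0.42 on the log2(FPKM + 1) scale (SE, limma adjusted p = 0.236, unadjusted p = 0.0089). The 95% interval of that difference ran from 0.43 to 2.30. Read as count error alone, the deposited bounds of Gimap8 would stand for 143, 168 and 331 fragments across the WT replicates. In the labelled-deficient replicates they would stand for 142, 798 and 425. Replicate 1 was thus level between the groups in such fragments, though not in FPKM, and the reason was not tested.

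Gimap3, a close relative of Gimap5 that has been tied to the segregation of mitochondrial DNA in mouse blood cells, had the largest difference of the 6 units. It was at 6.82, 7.10 and 22.4 FPKM across the WT replicates, against 38.2, 46.4 and 21.2 in the labelled-deficient replicates. Replicates 1 and 2 stood far apart between the groups, while the 2 libraries numbered 3 were about level. Read as count error alone, the deposited bounds would stand for 76.2, 149 and 306 fragments across the WT replicates. In the labelled-deficient replicates they would stand for 301, 126 and 379. For replicate 2 such fragments were thus fewer in the labelled-deficient library, where FPKM was higher, and the reason was not tested. The means were 12.1 ± 8.92 and 35.3 ± 12.9 FPKM (SD, n = 3 each), with a log2 difference of 1.60 ± 0.53 (SE, limma adjusted p = 0.285, unadjusted p = 0.0133). It was 2.12 without WT replicate 3 (limma adjusted p = 0.116). Without WT replicate 1 it was 1.33 and without WT replicate 2 it was 1.35 (limma unadjusted p = 0.0545 and 0.0530).

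Gimap6, the member that binds Gabarapl2, was at 63.0, 76.0 and 72.5 FPKM across the WT replicates, against 130, 104 and 76.8 in the labelled-deficient replicates. The groups did not overlap, though labelled-deficient replicate 3 exceeded WT replicate 2 by less than 1 FPKM. The deposited bounds of those 2 values, 71.6 to 82.0 and 71.7 to 80.4 FPKM, overlap almost wholly. The log2 difference was 0.52 ± 0.44 (SE, limma adjusted p = 0.799).

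Gimap4, which has been described as a modulator of T-lymphocyte death, was at 26.1, 12.05 and 77.0 FPKM across the WT replicates, against 75.7, 46.8 and 50.7 in the labelled-deficient replicates. WT replicate 3 was the highest of the 6 libraries and WT replicate 2 the lowest. The deposited bounds of WT replicate 1, 11.9 to 40.2 FPKM, were the widest for their value of all Gimap rows. Read as count error alone, they would stand for about 13.6 fragments. The same reading gives 203 fragments for Gimap9, at 30.3 FPKM in that library, so the bounds are not taken as a count here. The log2 difference was 0.93 ± 0.62 (SE, limma adjusted p = 0.716). It was 0.32 without WT replicate 2 and was 1.61 without WT replicate 3.

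Gimap9 was at 30.3, 28.3 and 60.8 FPKM across the WT replicates, against 35.6, 19.6 and 35.5 in the labelled-deficient replicates. The groups overlapped, and the WT mean was the higher, at 39.8 ± 18.2 against 30.2 ± 9.25 FPKM (SD, n = 3 each). The log2 difference was -0.35 ± 0.46 (SE, limma adjusted p = 0.904), with a 95% interval of -1.38 to 0.69. Without WT replicate 3 it was -0.0047.

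The joined unit Gimap1/Gimap5/Gimap7 holds the members with the best known roles in lymphocyte survival. Its rows summed to 249, 41.5 and 186 FPKM across the WT replicates, against 93.4, 177 and 78.6 in the labelled-deficient replicates. WT held both the highest and the lowest library. The log2 difference was -0.19 ± 0.70 (SE, limma adjusted p = 0.982), with a 95% interval from -1.77 to 1.39, and its sign turned without WT replicate 1 (0.31), without WT replicate 3 (0.10) or without labelled-deficient replicate 3 (0.04).

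Where the rows were separate, the members of that unit could be read alone. Gimap7 was at 2.18 and 12.4 FPKM in WT replicates 2 and 3, against 13.8, 14.0 and 11.1 in the labelled-deficient replicates. Gimap7 in WT replicate 2 was thus the low value, and WT replicate 3 lay within the span of the labelled-deficient libraries. Gimap5 stood alone at 15.4 FPKM in WT replicate 1 and at 20.3 and 23.8 FPKM in labelled-deficient replicates 2 and 3. Gimap1 stood alone in labelled-deficient replicates 2 and 3, at 142 and 43.8 FPKM. In both of those libraries Gimap1 was the highest of the 3 genes. Read as count error alone, its bounds there would stand for 183 and 585 fragments, the higher FPKM having the fewer. The row of 233 FPKM that Gimap1 shares with Gimap7 in WT replicate 1 had wide deposited bounds, 177 to 290 FPKM.

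**Figure D2:**
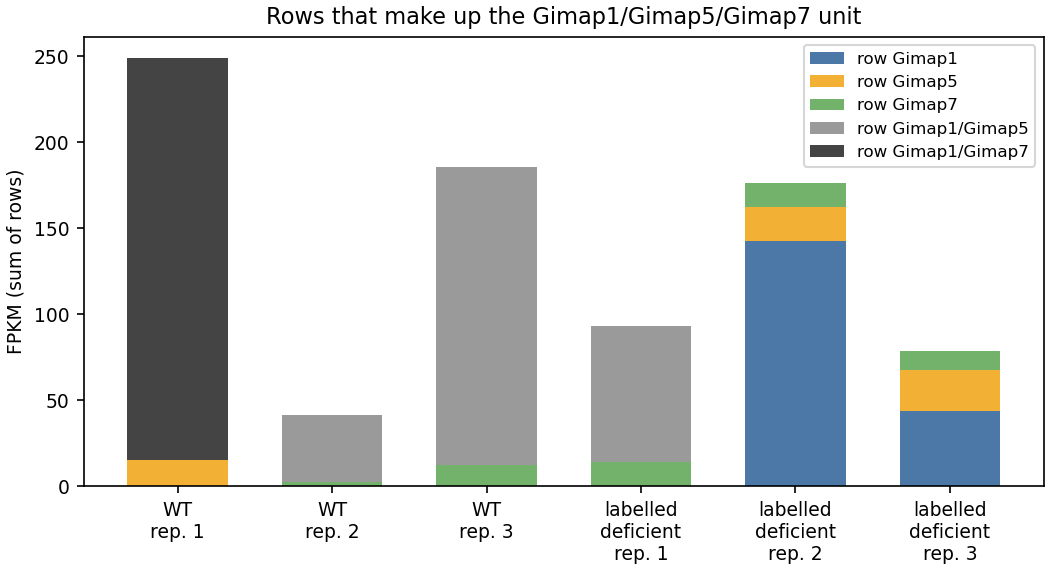
FPKM of the rows that were added into the Gimap1/Gimap5/Gimap7 unit, stacked for each of the 6 libraries; the colour gives the gene or joined pair that the row names. The same genes fall into different rows from library to library, and only labelled-deficient replicates 2 and 3 have a row for each gene.

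If every gene was instead given the value of each row that names it, so that a shared row counts for both its genes, Gimap1, Gimap5 and Gimap7 had log2 differences of -0.56, -0.48 and -0.63 (limma adjusted p = 0.899, 0.94 and 0.959). The median over the 8 genes was then 0.09, and over the 5 units that are single genes it was 0.93. The Gimap7 value in WT replicate 1 is in that case the 233 FPKM of the shared row, against 2.18 and 12.4 FPKM in the other WT libraries.

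**Figure D3:**
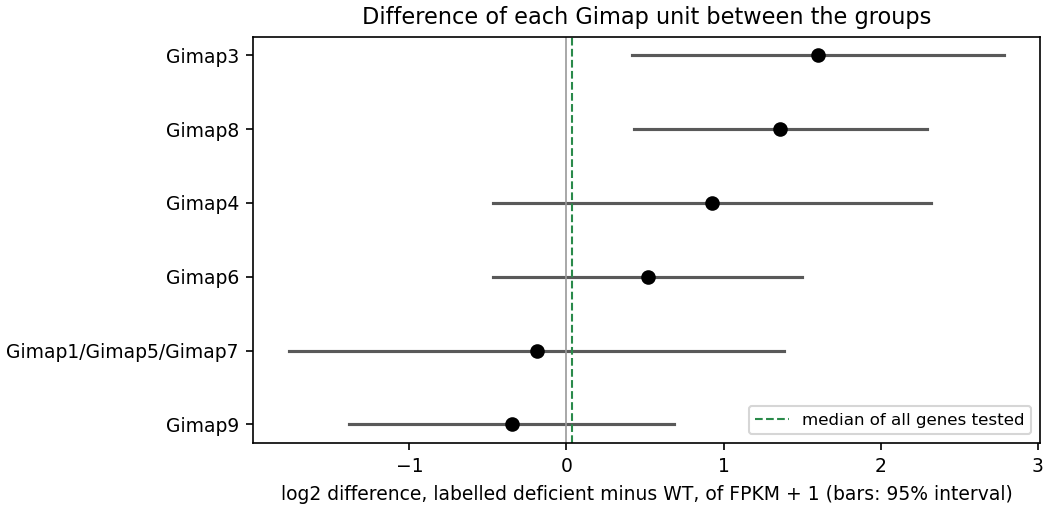
Fitted log2 difference of each Gimap unit, labelled deficient minus WT, with its 95% interval (bars) from limma, on the log2(FPKM + 1) scale. The intervals of Gimap3 and Gimap8 lie above 0 before adjustment over all genes, and those of the other 4 units cross 0.

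The balance between members within a library does not depend on how libraries are scaled against each other, apart from the added pseudocount of 1. Of the 15 pairs of units, 5 had log2 ratios that did not overlap between the groups, against 17.0% of all pairs of tested genes. Pairs share members and are not independent. Gimap9 exceeded Gimap3 in WT, by log2 ratios of 1.999, 1.86 and 1.40, and the ratios were -0.10, -1.21 and 0.72 in the libraries labelled deficient. Gimap9 over Gimap8 was 1.82, 1.05 and 1.97 in WT and -0.25, -0.58 and 0.55 in the libraries labelled deficient. The ratios of Gimap9 to both genes were thus lower in each labelled-deficient library than in any WT library. Gimap4 over Gimap9 went the other way, from -0.21, -1.17 and 0.33 to 1.07, 1.22 and 0.50. The other separated pairs were Gimap6 over Gimap8, with means of 2.51 and 1.66, and the joined unit over Gimap3, with means of 3.46 and 1.67. Gimap3 over Gimap8 was near 0 in both groups, with means of -0.14 and 0.10.

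**Figure D4:**
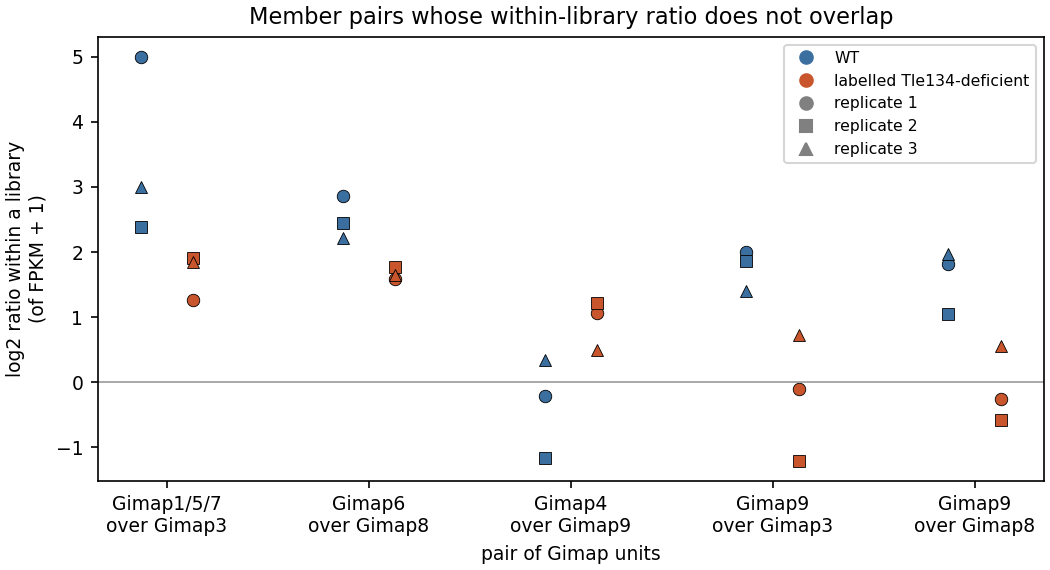
Log2 ratio of FPKM + 1 within each library for the 5 pairs of Gimap units whose groups do not overlap, WT in blue and labelled Tle134-deficient in orange, with the marker shape giving the replicate number. Gimap9 exceeds Gimap3 and Gimap8 in all 3 WT libraries, and in labelled-deficient replicates 1 and 2 it is below both.

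As a share of the summed Gimap FPKM, Gimap3 made up 1.78, 3.99 and 5.17% in WT and 9.20, 11.0 and 7.39% in the libraries labelled deficient. The shares of the other 5 units overlapped between the groups, among them Gimap8 at 2.05, 7.38 and 3.41% in WT and 10.3, 7.04 and 8.35% in the libraries labelled deficient. The joined unit took from 22.5 to 64.99% of the sum, so every share moves with it. The summed FPKM itself was 383, 178 and 433 in WT and 415, 423 and 287 in the libraries labelled deficient. WT replicate 2 was the lowest of all in that sum, and the groups overlapped.

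Genes beside the cluster were compared with it, from a list of 14 genes of which 10 lay within 300 kb of the cluster and 3 (Kcnh2, Nos3 and Atg9b) were on another chromosome in these tables; Abp1, an older symbol of Aoc1, was the remaining entry. Of the 10, 7 could be tested. None passed the test over all genes, and all 7 differences were below 0, with a median of -0.73 and a range of -1.74 to -0.28. Of all genes tested 52.7% were above 0, with a median of 0.04. The groups did not overlap for 2 of the 7 (Repin1 and Zfp775, both lower), beside 15.2% of all genes. Other symbols in that stretch, among them AI854703, 1700026J14Rik and 1600015I10Rik, were not on the list and were not read. Repin1, a zinc finger gene measured jointly with Gm5111, was at 7.59, 9.60 and 9.20 FPKM across the WT replicates, against 1.63, 2.81 and 1.47 in the labelled-deficient replicates (limma adjusted p = 0.145). On the other side, Tmem176b, a membrane protein gene of innate lymphoid and antigen-presenting cells, was at 53.3, 47.8 and 113 FPKM across the WT replicates, against 53.9, 29.2 and 36.6 in the labelled-deficient replicates (limma adjusted p = 0.7). Whether the cluster differs from its neighbours was not tested.

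**Figure D5:**
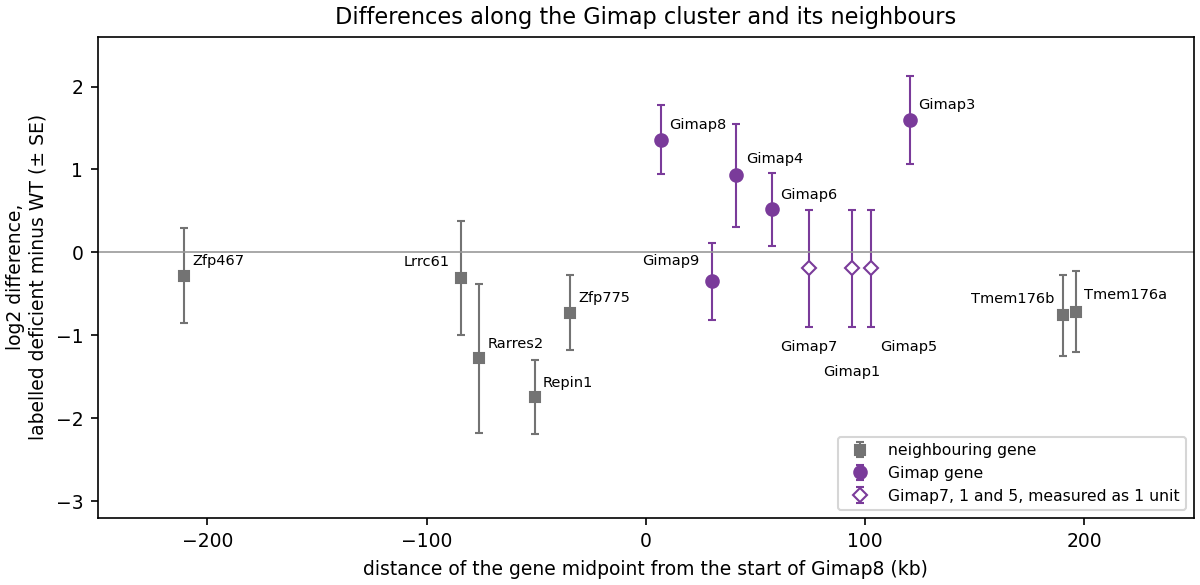
Log2 difference, labelled deficient minus WT, with its SE (bars) against the distance of each gene's midpoint from the start of Gimap8 in kb, for the Gimap genes (purple; open diamonds are the genes measured as 1 unit and share 1 value) and the 7 tested neighbours (grey squares). The neighbours lie below 0 on both sides, between -1.74 and -0.28, and none of the genes drawn passed the test over all genes.

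Genes of lymphocyte survival and quiescence, the setting in which GIMAP proteins are known, were read from a list of 23. Of these, 0 rose and 0 fell over all genes, 20 of 23 differences were above 0, beside 52.7% of all genes, and the median was 0.41, beside 0.04. The groups did not overlap for 7 of 23, beside 15.2% of all genes. The list also holds Bax, Bak1 and Bcl2l11, which promote cell death, so its counts are not a measure of survival. Their differences were 1.06, 0.29 and -0.29, and Bax was among those that did not overlap. Klf2, a factor of resting and recirculating lymphocytes, was at 29.1, 37.0 and 25.0 FPKM across the WT replicates, against 178, 189 and 81.4 in the labelled-deficient replicates (limma adjusted p = 0.0897). S1pr1, the sphingosine phosphate receptor used to leave lymphoid organs, was at 17.5, 8.90 and 8.93 FPKM against 43.2, 39.6 and 22.9 FPKM (limma adjusted p = 0.205). Ccr7, a homing receptor, was at 5.35, 2.75 and 9.11 FPKM against 18.9, 30.3 and 11.3 FPKM (limma adjusted p = 0.24). Bcl2, which prevents apoptosis, overlapped between the groups at 7.63, 5.02 and 10.2 FPKM against 10.5, 12.6 and 9.27 FPKM (limma adjusted p = 0.8).

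Of 10 genes for GIMAP partners and autophagy, 0 passed, 8 differences were above 0 and the median was 0.32. Gabarapl2 was at 27.0, 14.6 and 53.5 FPKM across the WT replicates, against 36.9, 23.1 and 33.3 in the labelled-deficient replicates (limma adjusted p = 0.983). Becn1, which encodes a core protein of autophagy initiation, was at 15.6, 22.8 and 21.6 FPKM against 30.2, 37.6 and 34.4 FPKM (limma adjusted p = 0.571). Of 15 other GTPase and GTPase regulator genes of immune cells, among them the Irgm, Gbp and Mx genes, 0 passed, 10 differences were above 0 and the median was 0.25. Dock2, an activator of Rac GTPases in lymphocytes, was at 49.5, 78.5 and 89.2 FPKM across the WT replicates, against 103, 187 and 127 in the labelled-deficient replicates (limma adjusted p = 0.586). Of the 7 genes listed for the promoter search, among them Ikzf1, for which no letters were searched, 0 passed. The difference with the smallest adjusted p was that of Klf2.

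Markers of some other cell types differed between the groups, and those of others overlapped. In bulk RNA, fewer cells of a type and less RNA per cell cannot be told apart. Of 12 B-cell markers, 9 rose and 0 fell, beside 0.750% of all genes past the threshold in either direction. The groups did not overlap for 12 of 12, beside 15.2% of all genes, and the median log2 difference was 3.42. Their summed level was 127 to 192 FPKM in WT and 1454, 1084 and 799 FPKM in labelled-deficient replicates 1, 2 and 3, and Cr2 was the only marker of this list at 0, in 2 WT libraries. Of the 12 markers, 0 passed without WT replicate 1, without labelled-deficient replicate 1 or 2, or with no filter on low values, and only Cd22 passed without WT replicate 2 or with the replicate number as a block. All 12 differences were above 0 in each of those fits. Gimap8 and Gimap6 took the same order as the B-cell sum among the 3 libraries labelled deficient, and Gimap3, Gimap4, Gimap9 and the joined unit did not. Among the WT replicates, where the sum was 127, 151 and 192 FPKM, Gimap8 and Gimap3 took its order. Gimap6, Gimap4, Gimap9 and the joined unit did not. An order of 3 libraries carries little weight. The part of the B-cell genes in the Gimap values was not tested. Of 12 T-cell markers, 0 rose and 0 fell, and all 12 differences were below 0 with a median of -0.96. The groups did not overlap for 4 of these 12, beside 15.2% of all genes. The summed T-cell level was 744, 310 and 999 FPKM across the WT replicates, against 469, 213 and 187 in the labelled-deficient replicates, with none of the 12 markers at 0. WT replicate 2, the lowest WT library in that sum, was also the lowest in Gimap4, Gimap9, the joined unit and, among those where it stood alone, Gimap7. It was the highest WT library in Gimap6 and the middle one in Gimap3 and Gimap8. The part of the T-cell genes was not tested.

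Among the other marker lists, the 8 endothelial genes held 1 that fell (Egfl7, at 15.5, 21.8 and 19.7 FPKM across the WT replicates, against 0.72, 0.75 and 4.50 in the labelled-deficient replicates, limma adjusted p = 0.0467), and of the 5 that could be tested 3 were above 0, with a median of 0.08. The groups did not overlap for 3 of the 5, beside 15.2% of all genes. Besides Egfl7 these were Eng, also lower, and Pecam1, which was higher. Eng was at 15.8, 27.3 and 10.7 FPKM across the WT replicates, against 0, 1.17 and 5.075 in the labelled-deficient replicates (limma adjusted p = 0.104). Pecam1 was at 21.7, 21.1 and 17.3 FPKM across the WT replicates, against 39.2, 39.9 and 30.04 in the labelled-deficient replicates (limma adjusted p = 0.506). The summed endothelial level was 48.9 to 74.9 FPKM in WT and 43.3 to 44.6 FPKM in the libraries labelled deficient, Emcn was listed at 0 in 5 of 6 libraries and Cdh5 in 2 WT libraries. Of the 6 stromal genes, Pdgfrb fell (limma adjusted p = 0.0469), all 6 differences were below 0 with a median of -2.11, and their sum was 81.3 to 377 FPKM in WT against 17.9 to 78.7 FPKM. The groups did not overlap for 2 of the 6, beside 15.2% of all genes. When 1 library was left out, the call of Pdgfrb was lost in all 6 fits (limma adjusted p = 0.0951 to 0.166) and that of Egfl7 in 5 (limma adjusted p = 0.129 to 0.163), the exception being without labelled-deficient replicate 3. Both were also lost with the replicate number as a block (limma adjusted p = 0.0974 and 0.0821), with a pseudocount of 0.1, with no filter on low values and without the trend and robust step. Of the mast cell, dendritic, NK and innate lymphoid, myeloid and erythroid lists none had a member past the threshold. The groups overlapped for every tested gene of the myeloid (8), dendritic (5) and erythroid (1) lists. The medians of these 3 lists were 0.17, 0.22 and -0.04. All 5 mast cell differences were below 0, with a median of -3.07, and the groups did not overlap for 3, beside 15.2% of all genes. The mast cell sum was 116, 76.6 and 229 FPKM across the WT replicates, against 10.1, 22.1 and 56.5 in the labelled-deficient replicates. The mast cell protease gene Tpsb2 had 5.82, 3.66 and 17.5 FPKM across the WT replicates, and all 3 labelled-deficient replicates list it at 0 (limma adjusted p = 0.05004). Of the 7 NK and innate lymphoid genes that could be tested, 6 were below 0, with a median of -1.42. The groups did not overlap for 3 of the 7, beside 15.2% of all genes. The sum overlapped at 177 to 299 FPKM in WT against 93.2 to 198 FPKM. It holds Nkg7 as measured jointly with Cldnd2, Etfb and Mir7051, so it is not a level of these cells alone. That joined unit was at 46.2, 109 and 125 FPKM across the WT replicates, against 85.5, 35.8 and 149 in the labelled-deficient replicates. The myeloid sum was 112 to 486 FPKM in WT and 102, 110 and 1178 FPKM in labelled-deficient replicates 1, 2 and 3. Replicate 3 of that group had the lowest Gimap8, Gimap6 and Gimap3 values of its group. The part of these cells in the Gimap values was not tested.

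The 6 genes whose pattern was most like the mean log2(FPKM + 1) of the Gimap units were taken from 7320 genes with a mean of at least 5 FPKM, by Pearson's r over the 6 libraries. They were Itpr2 (r = 0.988), Slamf6 (r = 0.988), Ptprc (r = 0.986), Psap (r = 0.979), Ube2d3 (r = 0.978) and Mrgbp (r = 0.976). These are descriptions over 6 libraries that share the library scaling and the group difference, picked as the highest of many. The family mean they follow was 4.97, 4.52 and 5.75 in WT and 5.96, 5.77 and 5.43 in the libraries labelled deficient. Slamf6, a receptor of T, B and NK cells, was at 8.19, 5.33 and 22.1 FPKM across the WT replicates, against 37.0, 28.9 and 18.9 in the labelled-deficient replicates (limma adjusted p = 0.405). Ptprc, which encodes the leukocyte antigen CD45, was at 77.2, 58.2 and 129 FPKM across the WT replicates, against 139, 127 and 117 in the labelled-deficient replicates (limma adjusted p = 0.77). Like Gimap3, both were higher in WT replicate 3 than in labelled-deficient replicate 3.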

How the data were processed

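RNA was sequenced from 6 libraries of sorted DN1 thymocytes, 3 per group. The build mm9 and the tools featureCounts 2.0.1, TopHat2 2.1.1 and Trimmomatic 0.38 are named, without their roles, per the submitters' processing notes. The deposited values are FPKM with a lower and an upper bound for each locus, per the file headers, in the layout of a Cufflinks gene tracking table. The sources used here do not give its version, the annotation or whether strand was used. Depth was approximated from the bounds.

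Tables were joined on symbol, and symbols sharing a row in any library were added into 1 unit (24318 symbols, 23401 units). Units of at least 1 FPKM in at least 3 libraries (11063) were fitted as log2(FPKM + 1), a scale that understates changes of low genes, with limma 3.58.1 in R 4.3.3 (group term, mean-variance trend, robust empirical Bayes, two-sided, Benjamini-Hochberg, threshold 0.05). Joining, ratios and letter searches used Python 3.11.15 and pandas 2.3.3. The rule for named genes takes all members, list members past the threshold and up to 3 others per list, and the 6 most similar genes. Bcl2, Gabarapl2, Bax, Bak1, Bcl2l11 and Nkg7 fall outside it and were chosen after their values were seen. Members and lists were chosen with earlier results of these data known. Promoter sequences are RefSeq's on GRCm38.p6, and all 8 members matched. mm9 coordinates count from 1. The alternatives tried are in the closing section.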

Additional observations from a re-analysis of the deposited data

How the results depend on the processing

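Under all 15 alternatives no Gimap unit passed the threshold over all genes, with 1 to 3 at an unadjusted p under 0.05. The directions of Gimap3, Gimap4, Gimap6, Gimap8 and Gimap9 were the same under each of them, and the lowest limma adjusted p was 0.116 (Gimap3 without WT replicate 3). Leaving out 1 library at a time moved Gimap8 between 1.11 and 1.55, Gimap3 between 1.33 and 2.12, and the joined unit Gimap1/Gimap5/Gimap7 between -0.97 and 0.31, with its sign turning to 0.31, 0.10 and 0.04 in 3 cases. The median over the units ran from 0.45 to 1.03 in those fits and was 0.085 when shared rows were counted for each of their genes. The median of all genes moved from 0.04 to 0.19 without WT replicate 3 and to -0.04 and -0.03 under median scaling and quantile normalization.

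The count over all genes, 83, was 53 with a pseudocount of 0.1, 0 without a filter (1181 at an unadjusted p under 0.05), 55 with limma without the trend and robust step, and 0 to 58 when 1 library was left out. Omitting replicate 1 of WT left 0 (877 at an unadjusted p under 0.05), as did omitting replicate 1 or 2 of the labelled-deficient group (951 and 956). The causes were not tested. With the replicate number as a block it was 2. Deviations of same-numbered libraries correlated at 0.08, 0.18 and 0.17 across genes, each library best with its own number. The labels state no pairing, so the main fit has no replicate term. Whether same-numbered libraries share a source or a run was not tested.

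Precision is limited by 3 libraries per group, by the wide deposited bounds of Gimap4 in WT replicate 1 (11.9 to 40.2 FPKM), and by rows that join genes. It is also limited where deposited bounds and FPKM do not go together, as for Gimap8, Gimap3 and the joined unit.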
